A study of Mus musculus with 6 samples.

Results

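The nonclassical MHC class I genes measured here were H2-T23, H2-T22, H2-T10, H2-M3, H2-Q4, H2-Q6, H2-Q7, Cd1d1 and Mr1. They were chosen by name, and each matched 1 entry of the deposited expression table, giving 9 of 21358 entries, all 9 of which passed the filter on low values given below. RNA came from whole B16-F10 tumors, a murine melanoma line carried by C57/BL6 mice (females aged 6 to 8 weeks), taken at day 12 from 3 mice given ACT + IL-2 and 3 mice given ACT + NKTR-214. ACT is adoptive cell transfer. All 6 mice had first been irradiated over the whole body (500 cGy). Once their tumors measured at least 150 mm3 they received 2000000 pmel-1 splenocytes intravenously, which had been activated with peptide and contain CD8 T cells with a transgenic receptor for the melanoma antigen gp100. The ACT + IL-2 mice then received human recombinant IL-2 at 0.4 mg/kg on 3 days of each cycle, and the ACT + NKTR-214 mice received a single dose per cycle of 0.8 mg/kg NKTR-214, a pegylated prodrug of IL-2, with 9 days between cycles. No mice without a cytokine were analysed here, irradiated hosts keep only part of their own lymphocytes, and the transferred T cells recognize 1 antigen.

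Classical MHC class I molecules present peptides to CD8 T cells on nearly every nucleated cell. The nonclassical molecules share their fold but vary little between individuals, and many of them present a narrow class of ligand to particular lymphocytes. Qa-1, the product of H2-T23, presents signal peptides of other class I molecules to CD94/NKG2 receptors of NK cells and CD8 T cells. The products of H2-T22 and H2-T10 are bound by some gamma-delta T cells without a peptide, and H2-M3 presents N-formylated peptides of bacterial or mitochondrial origin. H2-Q6 and H2-Q7 encode Qa-2 antigens and H2-Q4 a close relative of them, CD1d presents lipids to NKT cells, and MR1 presents small metabolites of riboflavin synthesis to MAIT cells.

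All 9 genes were higher in ACT + NKTR-214 tumors, and in each of them every ACT + NKTR-214 tumor lay above every ACT + IL-2 tumor. H2-Q7 and H2-Q6 rose most, by a ratio of mean FPKM of 5.62 and 4.83. H2-T22 and Mr1 rose least, with ratios of 1.42 and 1.40, and their calls depended on single tumors. The change also altered the makeup of the group, with H2-Q6 and H2-Q7 taking a larger share of its summed signal and H2-T22, H2-Q4 and Mr1 a smaller one. FPKM are fragments per kilobase of exon, scaled by the authors to the mapped reads of the library, so that levels can be compared between genes. Genes whose FPKM averaged 0.1 or more were tested on log2(FPKM + 1) with limma, and those with a Benjamini-Hochberg adjusted p under 0.05 were called. Of the 14172 genes tested, 20.7% were called higher and 8.28% lower in ACT + NKTR-214 tumors, and in 27.1% all 3 ACT + NKTR-214 tumors lay above all 3 ACT + IL-2 tumors (42.4% did not overlap in either direction). The median log2 fold change was 1.03 over the 9 genes and 0.05 over all genes tested. The smallest p of an exact two-sided permutation test with 3 against 3 tumors is 0.1, and the adjusted p-values depend on limma pooling the variance over genes. Changes of weakly expressed genes are understated by the offset of 1 FPKM. In bulk tumor RNA, a change in the number of cells that express a gene cannot be told apart from a change in the RNA per cell.

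**Figure D1:**
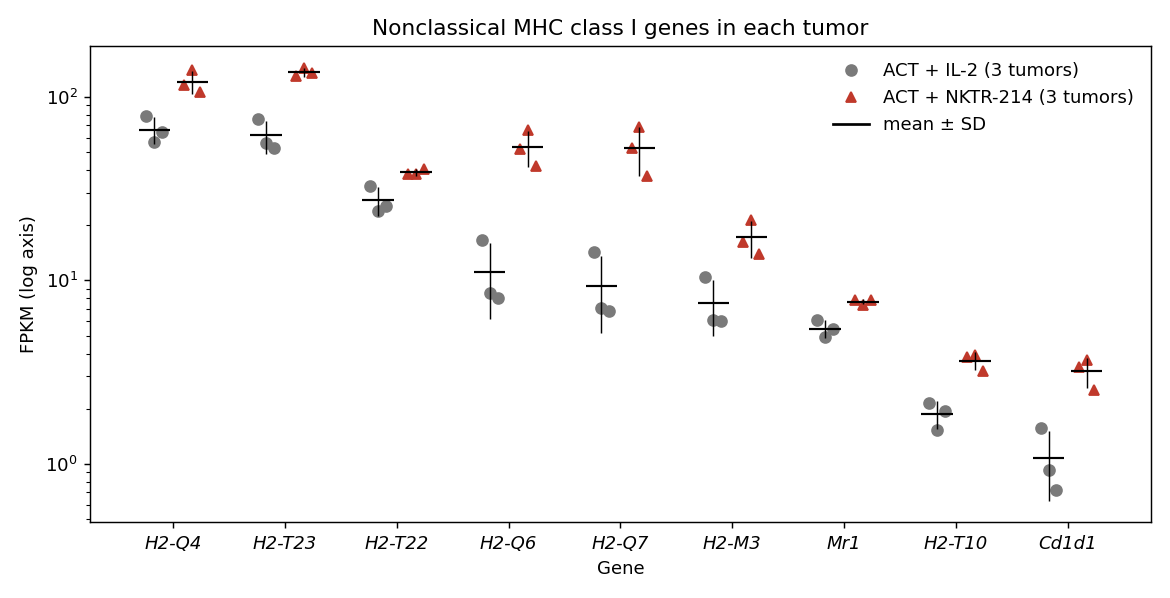
Level of each gene in FPKM on a log axis, with 1 point per tumor (circles ACT + IL-2, triangles ACT + NKTR-214), bars for the mean and lines for the SD of 3 tumors. No gene's groups overlap, and the widest gap is that of H2-Q7, whose lowest ACT + NKTR-214 tumor (37.2) lies above its highest ACT + IL-2 tumor (14.2).

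Several of these genes are close copies of each other, which bears on what an FPKM value of 1 gene can hold. On GRCm38 with the GENCODE vM21 annotation, 7 of the 9 genes lie on chromosome 17 in the MHC region. H2-Q4 (35379617 to 35385290), H2-Q6 (35424850 to 35430055), H2-Q7 (35439155 to 35443773) and H2-M3 (37270220 to 37274484) are on the plus strand, and H2-T23 (36029773 to 36032855), H2-T22 (36037128 to 36042747) and H2-T10 (36115876 to 36121465) are on the minus strand. Cd1d1 lies on chromosome 3 (86995834 to 86999441) and Mr1 on chromosome 1 (155127277 to 155146814), both on the minus strand. H2-T10 is annotated as a polymorphic pseudogene and the other genes as protein coding. The coding sequences of H2-T22 and H2-T10 were identical at 96.3% of aligned bases, and those of H2-Q6 and H2-Q7 at 95.4%. H2-Q4 shared 90.2% of aligned bases with H2-Q6 and 90.8% with H2-Q7, about as much as with the classical genes H2-K1 (90.1%) and H2-D1 (90.3%). Cd1d1 stood farthest from the rest, with 42.0% identity to H2-Q6, and Mr1 shared 51.8% with H2-Q6.

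**Figure D2:**
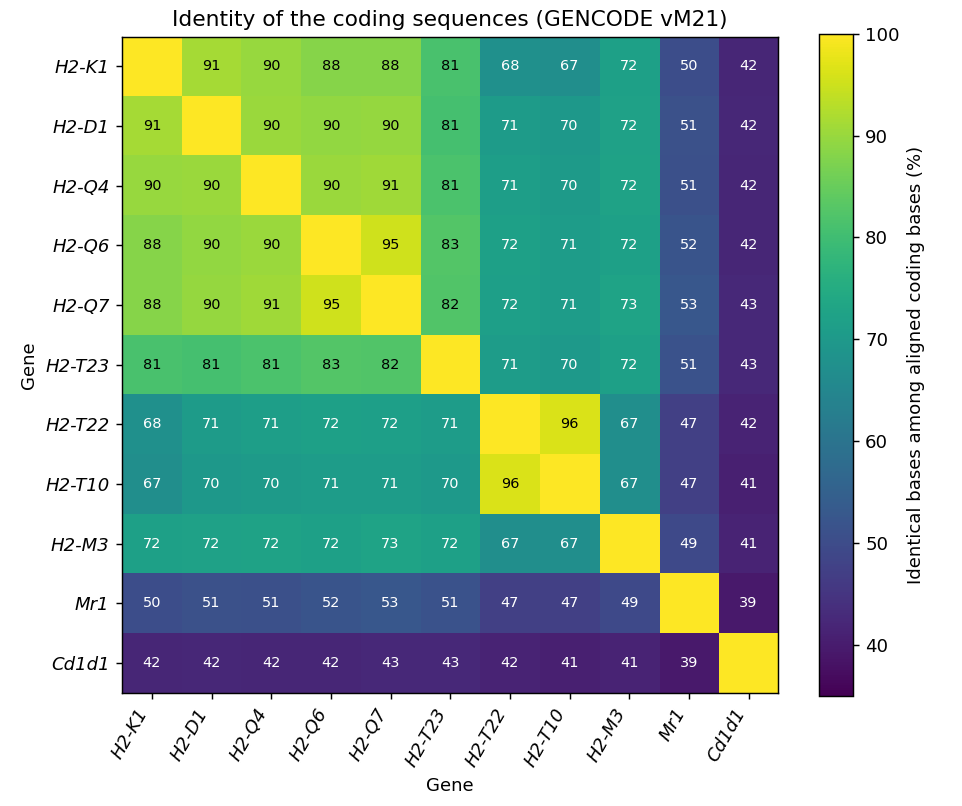
Percent of identical bases among aligned coding bases for each pair of the 9 nonclassical genes and the classical genes H2-K1 and H2-D1. The brightest nonclassical pairs are H2-T22 with H2-T10 (96.3%) and H2-Q6 with H2-Q7 (95.4%), and the rows of Mr1 and Cd1d1 are dark throughout.

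A read of 50 bases, the length sequenced here, could therefore fit several of these genes equally well in one place and only 1 of them in another. The stretch below spans the junction of coding exons 3 and 4 and shows such a place, where H2-Q6 (chr17:35425844-35427910 with the intron, coding bases 608 to 657) and H2-Q7 (chr17:35440182-35442313) are identical, while H2-Q4 (chr17:35380634-35382904) differs at 9 bases and H2-K1 (chr17:33997514-33999273, minus strand) at 12. Capitals mark bases that differ from H2-Q6.
H2-Q6: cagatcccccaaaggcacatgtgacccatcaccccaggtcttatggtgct
H2-Q7: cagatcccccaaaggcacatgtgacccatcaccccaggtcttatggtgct
H2-Q4: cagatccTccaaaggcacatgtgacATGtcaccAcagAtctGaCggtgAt
H2-K1: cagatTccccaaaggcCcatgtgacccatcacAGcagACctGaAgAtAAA

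In a stretch of exon 5 picked for its differences, the order of likeness turned around. The stretch of 50 coding bases where H2-Q6 (chr17:35428275-35428324, plus strand) and H2-Q7 (chr17:35442686-35442735) differed most, at 8 bases, left H2-Q4 (chr17:35383269-35383318) with 2 differences from H2-Q6. Capitals again mark bases that differ from H2-Q6.
H2-Q6: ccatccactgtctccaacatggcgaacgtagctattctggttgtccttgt
H2-Q7: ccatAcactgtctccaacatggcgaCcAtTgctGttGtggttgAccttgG
H2-Q4: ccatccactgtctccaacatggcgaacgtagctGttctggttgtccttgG

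The pair H2-T22 and H2-T10 was alike in the same way. Over the stretch where they differed most, at 7 bases, H2-T22 (chr17:36040613-36040662, minus strand, exon 4 of 9) was identical to H2-T23 (chr17:36030957-36031006), and H2-T10 (chr17:36119324-36119373) was not. Capitals mark bases that differ from H2-T22.
H2-T22: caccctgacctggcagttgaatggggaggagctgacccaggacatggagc
H2-T23: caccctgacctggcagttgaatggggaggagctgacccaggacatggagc
H2-T10: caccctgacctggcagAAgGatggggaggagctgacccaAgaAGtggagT

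Counted over all 50-base windows of the transcript, the share that also occurred in a transcript of another gene was 44.7% for H2-T22, 43.0% for H2-T10, 40.2% for H2-Q7, 39.2% for H2-Q4, 34.97% for H2-Q6, 29.8% for H2-T23, 25.8% for Cd1d1, 0.576% for H2-M3 and 0 for Mr1. The shared windows of H2-T22 were mostly those of H2-T10 (37.9% of all its windows), and those of H2-Q7 were mostly of H2-Q5 (20.1%) and H2-Q6 (19.6%). For Cd1d1 they all lay in its copy Cd1d2, which had an FPKM of at most 0.0673 in any tumor. H2-Q4 exons overlapped the gene Gm11131 over 21.0% of their length. How the authors' counting treated reads that fit several genes, and whether it used strand, is not given in the sources used here, so the values of H2-T23, H2-T22, H2-T10, H2-Q4, H2-Q6 and H2-Q7 are uncertain as single genes. The shared windows of H2-T23 included 7.10% also found in H2-D1 and 4.08% in H2-K1. The deposited values themselves moved together for 3 further pairs, chosen after the values were seen and with partners that the annotation used here does not list. The ratio of H2-Q6 to H2-Q8 stayed between 1.028 and 1.030 in the 6 tumors (a spread of 0.239%), that of H2-Q7 to H2-Q9 between 0.990 and 0.991, and that of H2-T22 to H2-T9 between 0.566 and 0.582. The ratio of H2-Q6 to H2-Q7 was less fixed, from 1.17 to 1.21 in ACT + IL-2 tumors and from 0.965 to 1.14 in ACT + NKTR-214 tumors.

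H2-T23, which encodes the Qa-1 ligand of CD94/NKG2, was one of the strongest nonclassical genes in both groups. It stood at 76.1, 56.1 and 52.9 FPKM in ACT + IL-2 tumors and at 129, 144 and 135 FPKM in ACT + NKTR-214 tumors, values being listed here and below from replicate 1 to replicate 3. The groups were well apart, with the lowest ACT + NKTR-214 tumor 1.70 times the highest ACT + IL-2 tumor. H2-T23 rose by a log2 fold change of 1.15 ± 0.17 (SE, n = 3 per group, limma adjusted p = 0.000122). Its mean went from 61.7 ± 12.6 to 136 ± 7.55 FPKM (SD, n = 3).

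H2-T22 and H2-T10, the gamma-delta T cell ligands, differed in level and in how firmly they changed. H2-T22 stood at 32.8, 23.9 and 25.3 FPKM in ACT + IL-2 tumors and at 37.8, 37.9 and 40.7 FPKM in ACT + NKTR-214 tumors. The ACT + NKTR-214 tumors were close together, and ACT + IL-2 replicate 1 came within a factor of 1.15 of the lowest of them. Its log2 fold change of 0.50 ± 0.15 passed the test (adjusted p = 0.0213), but it was called in only 2 of the 6 fits that left out 1 tumor. The call was lost without ACT + IL-2 replicate 2 (adjusted p = 0.0508) or 3 (0.101) and without ACT + NKTR-214 replicate 1 (0.0508) or 3 (0.0548). H2-T10 was far lower, at 2.16, 1.53 and 1.94 FPKM in ACT + IL-2 tumors and 3.84, 3.95 and 3.20 FPKM in ACT + NKTR-214 tumors. Its groups were farther apart, with the lowest ACT + NKTR-214 tumor 1.48 times the highest ACT + IL-2 tumor. H2-T10 rose by a log2 fold change of 0.70 ± 0.15 (adjusted p = 0.00218). The FPKM of H2-T10 was between 0.0640 and 0.0767 of that of H2-T22 in ACT + IL-2 tumors and between 0.0786 and 0.104 in ACT + NKTR-214 tumors. With the values of both genes summed to 1 entry, the log2 fold change was 0.54 (adjusted p = 0.0146).

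H2-M3, the presenter of N-formyl peptides, was the MHC-linked gene with the fewest shared windows. It measured 10.41, 6.08 and 6.02 FPKM in ACT + IL-2 tumors and 16.1, 21.4 and 13.97 FPKM in ACT + NKTR-214 tumors. ACT + IL-2 replicate 1 was the highest of its group, and the lowest ACT + NKTR-214 tumor was 1.34 times as high. H2-M3 rose by a log2 fold change of 1.11 ± 0.20 (adjusted p = 0.000546).

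Of the 3 Q genes, H2-Q4 was the most abundant and H2-Q6 and H2-Q7 the most changed. H2-Q4 stood at 78.2, 56.4 and 64.4 FPKM in ACT + IL-2 tumors and at 116, 140 and 106 FPKM in ACT + NKTR-214 tumors, a log2 fold change of 0.86 ± 0.18 (adjusted p = 0.00165). The Qa-2 gene H2-Q6 stood at 16.7, 8.53 and 7.98 FPKM in ACT + IL-2 tumors and at 51.9, 66.0 and 42.2 FPKM in ACT + NKTR-214 tumors. Every ACT + NKTR-214 tumor was at least 2.53 times the highest ACT + IL-2 tumor. H2-Q6 rose by a log2 fold change of 2.22 ± 0.23 (adjusted p = 2.99e-06). H2-Q7, the other Qa-2 gene, stood at 14.2, 7.07 and 6.81 FPKM in ACT + IL-2 tumors and at 52.3, 68.3 and 37.2 FPKM in ACT + NKTR-214 tumors. It had the widest separation of the 9 genes, with a lowest ACT + NKTR-214 tumor 2.61 times the highest ACT + IL-2 tumor. H2-Q7 rose by a log2 fold change of 2.40 ± 0.24 (adjusted p = 2.71e-06), rank 139 of 14172 genes from the highest log2 fold change, with H2-Q6 at rank 187. With H2-Q6 and H2-Q7 summed to 1 entry the log2 fold change was 2.37 (adjusted p = 3.08e-06).

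The genes outside the MHC, Cd1d1 and Mr1, were low and moved by different amounts. Cd1d1, which encodes the lipid presenter CD1d, measured 1.57, 0.924 and 0.726 FPKM in ACT + IL-2 tumors and 3.38, 3.69 and 2.54 FPKM in ACT + NKTR-214 tumors. Its lowest ACT + NKTR-214 tumor was 1.62 times its highest ACT + IL-2 tumor. Cd1d1 rose by a log2 fold change of 1.03 ± 0.17 (adjusted p = 0.000214). On this scale the offset of 1 FPKM weighs on so low a gene, and its ratio of mean FPKM was 2.99. Mr1, which encodes the presenter of riboflavin metabolites to MAIT cells, measured 6.08, 4.89 and 5.43 FPKM in ACT + IL-2 tumors and 7.84, 7.36 and 7.83 FPKM in ACT + NKTR-214 tumors. Its groups were each narrow and did not overlap, with a gap of 1.21 times. Mr1 passed the test (log2 fold change 0.43 ± 0.15, adjusted p = 0.0404) but was called in only 2 of the 6 fits that left out 1 tumor. It was lost without ACT + IL-2 replicate 3 (adjusted p = 0.111) and without ACT + NKTR-214 replicate 1 (0.146), 2 (0.111) or 3 (0.107). The other 7 genes, leaving aside H2-T22 and Mr1, were called in all 6 such fits.

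**Figure D3:**
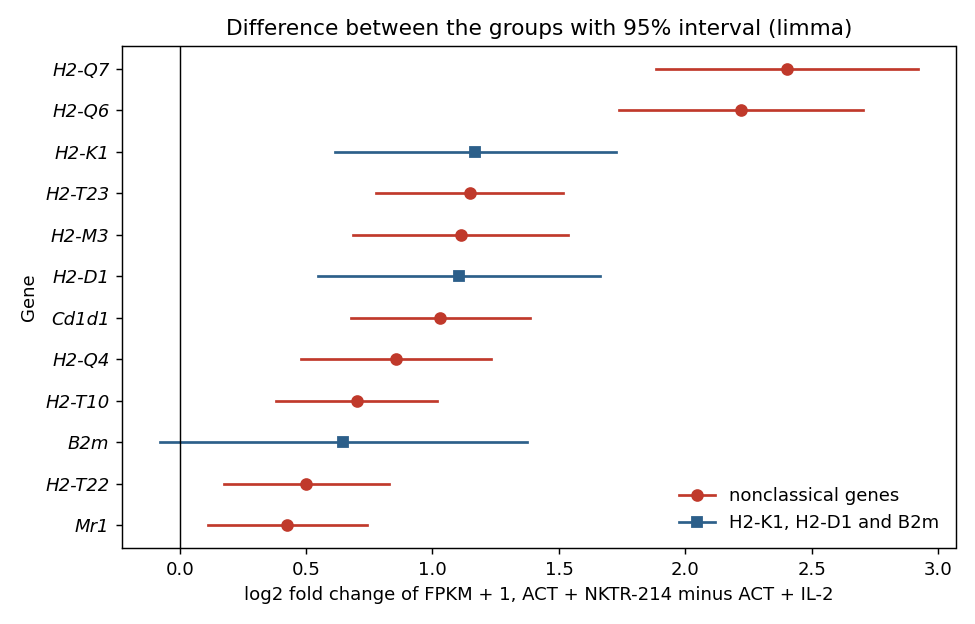
Log2 fold change of FPKM + 1 (ACT + NKTR-214 minus ACT + IL-2) with its 95% interval from limma, for the 9 nonclassical genes (circles) and for H2-K1, H2-D1 and B2m (squares). H2-Q7 (2.40) and H2-Q6 (2.22) stand to the right, 7 other nonclassical genes lie between 0.43 and 1.15, and of the 12 intervals that of B2m alone includes 0.

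ACT + IL-2 replicate 1 was the highest of its group for 9 of 9 genes, and ACT + NKTR-214 replicate 2 was the highest of its group for 7 of 9. The exceptions were H2-T22, highest in ACT + NKTR-214 replicate 3, and Mr1, highest in replicate 1. The lowest ACT + IL-2 tumor was replicate 2 for 4 genes and replicate 3 for 5, and the lowest ACT + NKTR-214 tumor was replicate 1 for 2 genes, replicate 2 for 1 and replicate 3 for 6. The tumors that were mostly highest for these genes also had the highest summed FPKM of 4 general leukocyte genes in their groups, with 142 in ACT + IL-2 replicate 1 and 608 in ACT + NKTR-214 replicate 2.

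By mean FPKM, the order in ACT + IL-2 tumors ran H2-Q4, H2-T23, H2-T22, H2-Q6, H2-Q7, H2-M3, Mr1, H2-T10 and Cd1d1. The ranges of 5 neighboring pairs overlapped there, those of H2-Q4 with H2-T23, H2-Q6 with H2-Q7, H2-Q7 with H2-M3, H2-M3 with Mr1, and H2-T10 with Cd1d1. In ACT + NKTR-214 tumors H2-T23 stood first, before H2-Q4, H2-Q6, H2-Q7, H2-T22, H2-M3, Mr1, H2-T10 and Cd1d1. Ranges there overlapped between H2-T23 and H2-Q4, between H2-Q6 and H2-Q7, between H2-Q7 and H2-T22 and between H2-T10 and Cd1d1. H2-Q6, which lay below H2-T22 in all 3 ACT + IL-2 tumors, lay above it in all 3 ACT + NKTR-214 tumors, and H2-Q7 lay above H2-T22 in 2 of those 3.

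The summed FPKM of the 9 genes was 238, 165 and 172 in ACT + IL-2 tumors and 419, 493 and 389 in ACT + NKTR-214 tumors, a ratio of means of 2.26 (exact permutation p = 0.1, the smallest that 3 against 3 tumors allow). Shares within this sum do not depend on how libraries are scaled. H2-Q6 made up 5.60% ± 1.23 (SD, n = 3) of the sum in ACT + IL-2 tumors and 12.2% ± 1.27 in ACT + NKTR-214 tumors, and H2-Q7 4.74% ± 1.08 and 12.0% ± 2.20. The share of H2-T22 was smaller in ACT + NKTR-214 tumors (14.3% ± 0.499 against 9.06% ± 1.39), as were those of H2-Q4 (34.8% ± 2.45 against 27.8% ± 0.569) and Mr1 (2.89% ± 0.313 against 1.79% ± 0.269). For these 5 genes the groups did not overlap, each with an exact permutation p of 0.1. The share of H2-T23 was 32.2% ± 1.56 in ACT + IL-2 tumors and 31.6% ± 2.81 in ACT + NKTR-214 tumors, and the groups overlapped (exact permutation p = 0.8). With H2-Q4, H2-Q6 and H2-Q7 left out of the sum, its share was instead higher in ACT + NKTR-214 tumors by 7.14 percentage points without overlap (exact permutation p = 0.1). The shares of H2-M3, H2-T10 and Cd1d1 overlapped between the groups as well, although that of Cd1d1 did not without the Q genes (a difference of 0.551 points against 0.190, exact permutation p = 0.1).

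**Figure D4:**
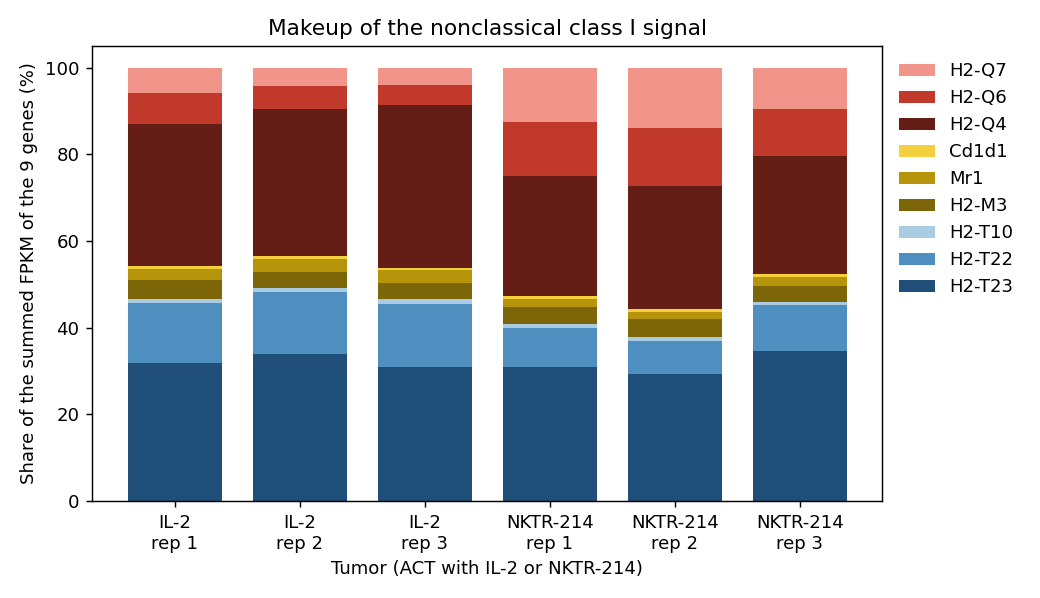
Share of each gene in the summed FPKM of the 9 genes, 1 bar per tumor, from 0 to 100%. The segments of H2-Q6 and H2-Q7 at the top are wider in the ACT + NKTR-214 tumors (means of 12.2% and 12.0%) than in the ACT + IL-2 tumors (5.60% and 4.74%), and that of H2-T22 is narrower.

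The classical class I heavy chains and beta-2 microglobulin, the light chain of all class I molecules, were set beside these genes. H2-K1 stood at 555, 382 and 432 FPKM in ACT + IL-2 tumors and at 997, 1126 and 932 in ACT + NKTR-214 tumors (log2 fold change 1.17 ± 0.26, adjusted p = 0.00304), and H2-D1 rose as well (1.10 ± 0.26, adjusted p = 0.00473, but 0.0567 without a filter on low values). Quantile normalization left the calls of both but lowered the log2 fold changes to 0.62 and 0.46. B2m was not called (0.65 ± 0.34, adjusted p = 0.174) but passed the threshold with 75th percentile scaling (adjusted p = 0.0342), with an expression filter of 1 FPKM (0.0317) and with eBayes without the trend (0.00797), out of a range up to 0.515 over the settings tried. Its lowest ACT + NKTR-214 tumor (2162 FPKM) lay above its highest ACT + IL-2 tumor (1787 FPKM). H2-T23, at 0.122 to 0.147 of the FPKM of H2-K1 in ACT + IL-2 tumors and 0.128 to 0.145 in ACT + NKTR-214 tumors, had overlapping ratios to this classical gene. The groups did not overlap for H2-Q7, with a ratio to H2-K1 of 0.0158 to 0.0256 in ACT + IL-2 tumors and 0.0399 to 0.0607 in ACT + NKTR-214 tumors.

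Against the mean log2 level of H2-K1, H2-D1 and B2m in the same tumor, H2-Q7 was higher by 1.43 and H2-Q6 by 1.25 in ACT + NKTR-214 tumors. Mr1 was lower by this measure (difference -0.55), as were H2-T22 (-0.47) and H2-T10 (-0.27). These 5 genes did not overlap between the groups (exact permutation p = 0.1 each), but for H2-T10 this depended on the offset, and with 0.1 FPKM in place of 1 its difference was -0.04 with overlap (exact permutation p = 0.6). H2-T23 (0.17, exact permutation p = 0.2), H2-M3 (0.14, p = 0.5), Cd1d1 (0.06, p = 0.7) and H2-Q4 (-0.12, p = 0.2) overlapped between the groups when all 3 reference genes were used. With the smaller offset Cd1d1 (0.57) and H2-T23 (0.18) no longer overlapped (exact permutation p = 0.1 each). Only the differences of H2-Q6 and H2-Q7 kept both their sign and their separation under the other offset and the other reference. With B2m alone as the reference, H2-T23 (0.50), H2-M3 (0.46), Cd1d1 (0.38) and H2-Q4 (0.21, the opposite sign) were higher without overlap (exact permutation p = 0.1 each), and H2-T10 (0.05, the opposite sign, p = 0.7), H2-T22 (-0.15, p = 0.3) and Mr1 (-0.22, p = 0.2) overlapped.

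**Figure D5:**
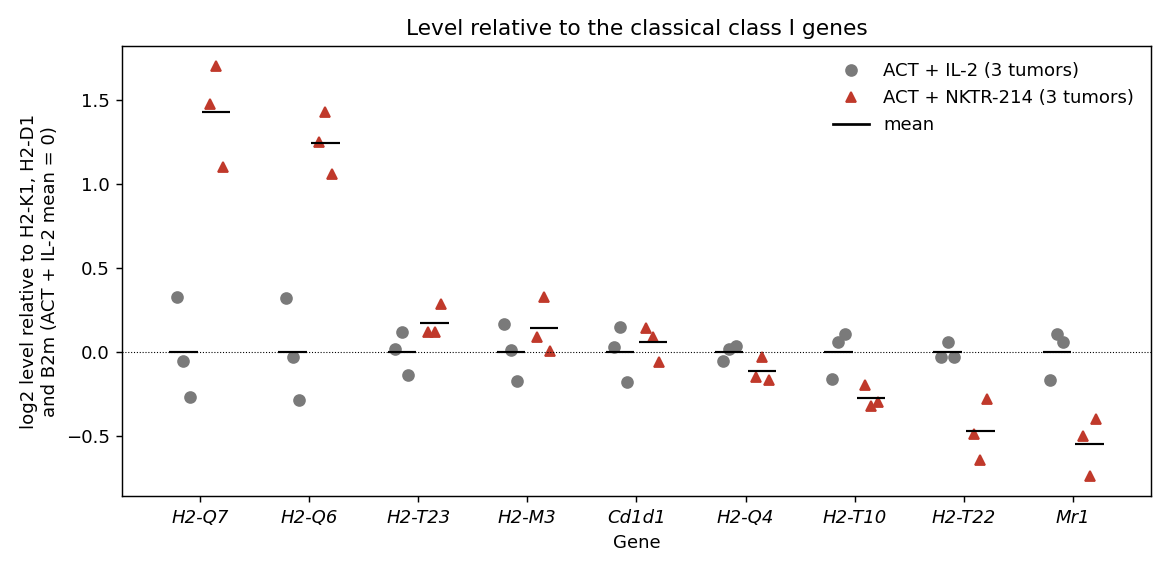
Log2(FPKM + 1) of each gene minus the mean log2 level of H2-K1, H2-D1 and B2m in the same tumor, with the ACT + IL-2 mean of each gene set to 0, and 1 point per tumor with a bar for the mean. H2-Q7 (1.43) and H2-Q6 (1.25) lie above the line at 0, and H2-T22 (-0.47), Mr1 (-0.55) and H2-T10 (-0.27, but -0.04 with overlap at an offset of 0.1 FPKM) lie below it.

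Of 37 other genes of the class I family, 35 were in the table, 22 were tested, 10 were called higher and 0 lower by limma (12 and 2 at an unadjusted p under 0.05), with a median log2 fold change of 0.41. The largest changes were those of H2-M2 (2.81 ± 0.19, adjusted p = 7.09e-08), H2-Q9 (2.40) and H2-Q8 (2.22), of which the last pair are the near copies of H2-Q7 and H2-Q6 named above. H2-T9, the near copy of H2-T22, was called higher as well (0.53, limma adjusted p = 0.0206). The calls of H2-Q8, H2-Q9 and H2-T9 thus largely repeat values of the nonclassical genes reported here and are not separate from them. H2-M2 went from 0.431 to 1.03 FPKM in ACT + IL-2 tumors to between 8.76 and 14.03 FPKM in ACT + NKTR-214 tumors. All entries for H2-M10.1, H2-M10.3, H2-M10.4, H2-M10.5, H2-M10.6 and H60c were listed at 0.

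The peptide loading machinery, which brings peptides to classical class I molecules and to Qa-1, had 13 genes tested, of which 5 were called higher and 0 lower by limma (7 and 1 at an unadjusted p under 0.05), with a median log2 fold change of 0.35. The largest were Tapbpl, a peptide editor (0.75 ± 0.16, adjusted p = 0.0024), Tap2, a subunit of the peptide transporter (0.65 ± 0.15, adjusted p = 0.00475), and Psmb8, an immunoproteasome subunit (0.64 ± 0.18, adjusted p = 0.0136). Among 12 genes for the lipid loading and traffic of CD1d, most of them lysosomal, 8 were called higher and 0 lower by limma (8 and 1 at an unadjusted p under 0.05), with a median log2 fold change of 0.94. Ctss, a lysosomal protease (2.83 ± 0.31, adjusted p = 5.21e-06), Ctsl, another cathepsin (2.07 ± 0.20, adjusted p = 1.75e-06), and Psap, the precursor of the saposins that move lipids onto CD1d (1.57 ± 0.30, adjusted p = 0.000813), changed most. Ctss and Ctsl also serve MHC class II presentation, and many myeloid cells express them.

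Of 13 genes listed for receptors and coreceptors of class I molecules, 12 were called higher and 0 lower by limma (12 and 0 at an unadjusted p under 0.05). The median log2 fold change over the list was 1.55. The list is not limited to receptors of the 9 genes. It also holds Ly49 and other receptor genes, and the CD8 chains, which are counted among the T cell markers as well. Klrd1, which encodes CD94, stood at 2.65, 0.904 and 1.32 FPKM in ACT + IL-2 tumors and at 39.4, 40.6 and 17.05 FPKM in ACT + NKTR-214 tumors (log2 fold change 3.63 ± 0.28, adjusted p = 2.37e-07). Cd8b1 (3.44 ± 0.28) and Cd8a (3.38 ± 0.25), the CD8 coreceptor chains, came next. Klrc1, which encodes the NKG2A partner of CD94 for Qa-1 and was picked after its values were seen, rose from between 0.550 and 1.12 FPKM to between 7.30 and 12.8 FPKM (2.75 ± 0.20, adjusted p = 1.36e-07). The ligand H2-T23 and this receptor pair were thus all higher in the same tumors. Klra8, an activating Ly49 receptor named after its values were seen, was the 1 gene of this list that was not called (0.01 ± 0.10, adjusted p = 0.977).

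The cells that CD1d and MR1 present to could be followed only in part. Of 13 genes listed for NKT, MAIT and gamma-delta T cells, 5 were in the table, and the T cell receptor segments of the list were not analysed here. The 3 that passed the filter were not called by limma (0 at an unadjusted p under 0.05). Among them were Zbtb16, the transcription factor of NKT and MAIT cells (0.14 ± 0.08, adjusted p = 0.208), and Sox13 (0.27 ± 0.14, adjusted p = 0.149). Zbtb16 did not overlap between the groups (0.077 to 0.131 FPKM against 0.1745 to 0.272), a level at which the offset of 1 FPKM leaves little room for a difference on the log2 scale.

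Class I genes are induced by interferons, through IRF1 and the transactivator NLRC5 among other factors. Of 17 genes of the interferon response and class I regulation, 8 were called higher and 0 lower by limma (8 and 1 at an unadjusted p under 0.05), with a median log2 fold change of 0.26. Ifngr1 (2.35 ± 0.23, adjusted p = 1.93e-06), a chain of the interferon gamma receptor, Ifng (1.63 ± 0.18, adjusted p = 8.29e-06), the cytokine itself, and Jak1 (0.87 ± 0.16, adjusted p = 0.00077), its kinase, changed most. Irf1 (-0.09 ± 0.17, adjusted p = 0.724) and Nlrc5 (0.18 ± 0.14, adjusted p = 0.351), named after their values were seen, were not called. Ifng and the 9 class I genes were thus higher in ACT + NKTR-214 tumors, while Irf1 overlapped between the groups. Nlrc5 did not overlap, at 33.2 to 35.9 FPKM in ACT + IL-2 tumors and 38.9 to 40.3 FPKM in ACT + NKTR-214 tumors.

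RefSeq promoters on GRCm38.p6, from 250 bases before to 50 bases after the start site, were on hand for 7 of the 9 genes, all but H2-T10 and Cd1d1. The core of the interferon-stimulated response element (ISRE, 2 runs of GAAA on the same strand with 2 bases between them, searched on both strands) was found in those of H2-T23 and H2-T22, 2 of the 7, against 3.44% of 32851 promoters. H2-T23 and H2-T22 are the 2 of the 7 genes searched that hold this exact core, and they differ in how much they changed. B2m is set beside them as the shared light chain. The ISRE stretches of these genes and of B2m are printed with the match in capitals, on the strand of the gene.
H2-T23 (chr17:36032786-36032845): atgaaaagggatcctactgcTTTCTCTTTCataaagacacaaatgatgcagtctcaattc
H2-T22 (chr17:36042894-36042953): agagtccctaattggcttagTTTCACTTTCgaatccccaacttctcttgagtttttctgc
B2m (chr2:122147528-122147587): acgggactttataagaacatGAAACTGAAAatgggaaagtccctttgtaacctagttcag

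The windows of H2-Q6 and H2-Q7, the most changed genes, did not hold the exact letters of the ISRE core. Their windows, and those of H2-Q4, H2-M3, H2-K1 and H2-D1, do hold a near match to it. Near matches were not counted, so the search cannot show that a promoter lacks an interferon element. The X2 box core (TGACG), where CREB family factors of the class I enhanceosome bind, was found in 4 of 7 promoters (H2-Q4, H2-Q7, H2-T22 and H2-M3), against 20.8% of all promoters. The Y box core (CCAAT), bound by NF-Y, was found in 6 of 7, all but that of Mr1, against 37.4% of all promoters, and a gamma-activated site (TTCNNNGAA) in that of H2-M3, against 8.3%. The stretches around the Y cores of H2-K1 and the 3 Q genes are printed to show how close they are, with X2 and Y matches in capitals. H2-Q6 had the Y cores but no X2 core. Within these stretches, the X2 core of H2-K1 and H2-Q7 lies before the Y cores and that of H2-Q4 between them, and no matches overlap. H2-Q4 has a further X2 match outside its stretch, after the start site.
H2-K1 (chr17:34000334-34000393, minus strand): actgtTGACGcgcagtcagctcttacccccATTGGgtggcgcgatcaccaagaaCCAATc
H2-Q4 (chr17:35379508-35379567, plus strand): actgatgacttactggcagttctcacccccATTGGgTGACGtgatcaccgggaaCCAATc
H2-Q6 (chr17:35424741-35424800, plus strand): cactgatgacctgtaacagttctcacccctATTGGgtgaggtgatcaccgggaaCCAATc
H2-Q7 (chr17:35439085-35439144, plus strand): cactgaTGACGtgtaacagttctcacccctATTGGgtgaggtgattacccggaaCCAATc
The log2 fold changes of these genes were 1.17 (H2-K1), 0.86 (H2-Q4), 2.22 (H2-Q6) and 2.40 (H2-Q7).

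The entries whose pattern over the 6 tumors was most like that of each gene were ranked by Pearson r of log2(FPKM + 1) among 11549 entries, as a description without a test, since the 2 groups of tumors lie apart. H2-Q8 and H2-Q9 came first for H2-Q6 and H2-Q7, and H2-T9 for H2-T22 (r of at least 0.9997). Next to these near copies, H2-Q6 was most like Cd53, a leukocyte tetraspanin, at 16.68, 7.748 and 6.997 FPKM in ACT + IL-2 tumors and 55.2, 70.9 and 45.1 FPKM in ACT + NKTR-214 tumors (r = 0.9998), and H2-Q7 was most like Ccdc88b (r = 0.9997). Cd1d1 was most like Cd52, a lymphocyte surface glycoprotein, and Rac2, a hematopoietic GTPase (r = 0.9999 and 0.9998). H2-T23 was most like Ctss and Fcgr2b, an inhibitory Fc receptor (r = 0.9988 and 0.9979), and H2-Q4 like P2rx4 and B4galt1. H2-T10 went with Pqlc3 and Irs2, H2-M3 with Arrb1 and Cul9, and Mr1 with Trim7 and Fam26e, and H2-T22 had Rab2b second.

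Markers of several cell types also differed between the groups, in either direction. All 4 general leukocyte genes were called higher, with a summed FPKM of 62.9 to 142 in ACT + IL-2 tumors and 341 to 608 in ACT + NKTR-214 tumors. T cell markers were higher in 9 of 9 (sum 11.3 to 28.8 against 149 to 328) and macrophage and monocyte markers in 9 of 9 (sum 211 to 601 against 884 to 1528). The macrophage and monocyte count was 8 of 9 with 75th percentile scaling, quantile normalization or eBayes without the trend. Adgre1 of that list overlapped between the groups. NK cell markers were higher in 4 of 5 tested, dendritic cell markers in 3 of 5, fibroblast and pericyte markers in 6 of 7 and endothelial markers in 1 of 5, against the background of 20.7% of all genes. The NK cell marker that was not called, Ncr1, overlapped between the groups (log2 fold change 0.07 ± 0.17, limma adjusted p = 0.799). The fibroblast count fell to 3 of 7 with 75th percentile scaling or quantile normalization, and Col1a1, Col1a2 and Col3a1 overlapped between the groups, and the dendritic cell count was 1 of 5 after quantile normalization. Melanoma markers were lower in 5 of 7, with a sum of 5413 to 6933 in ACT + IL-2 tumors and 2664 to 3763 in ACT + NKTR-214 tumors. Skeletal muscle markers were lower in 4 of 4 (2 of 4 without the trend), though their groups overlapped. No B cell (of 2 tested), adipocyte (of 4) or keratinocyte (of 2) marker was called. The part of these cell types in the change of the class I genes was not tested.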

How the data were processed

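Single-end reads of 50 bases were aligned by the authors with HISAT2 2.0.4 (GRCm38) and assigned to genes with HTSeq, and the deposited table gives linear FPKM for every tumor. The annotation and the treatment of multiply mapping reads are not given in the sources used here. Read counts were not used here. The value of 1 read in low entries gave a relative depth of 0.877 to 1.03 (ACT + IL-2 replicate 1 set to 1), and FPKM summed to 176420 (ACT + IL-2 replicate 2) to 246514 per tumor. Precision is therefore given by the spread between tumors.

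Each of the 6 libraries came from a separate mouse. The test was limma (version 3.58.1, R 4.3.3; lmFit and eBayes with trend) on log2(FPKM + 1), with Benjamini-Hochberg adjustment over 14172 genes and a threshold of 0.05. The fit was tested on simulated data. For shares and levels relative to classical genes, exact permutation tests (two-sided) were used. Coding sequences were aligned with MAFFT 7.526. Tables and plots used Python 3.11.15, pandas 2.3.3, numpy 2.4.6, scipy 1.17.1 and matplotlib 3.10.9.

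The members, gene lists and tests were chosen with earlier results of these data known. The text names the 9 genes, H2-K1, H2-D1 and B2m, the 3 called genes with the largest log2 fold change of each other list (lists of up to 6 tested genes whole), and for each of the 9 genes the 2 entries with the highest Pearson r among those averaging 1 FPKM or more. Klra8, Klrc1, Irf1 and Nlrc5 were among the genes added after their values were seen, as were some cell type markers. Values of some genes on these lists are not reported here. Other settings tried were an offset (pseudocount) of 0.1, an expression filter of mean FPKM 1 or none, 75th percentile scaling, quantile normalization, 2 other variance models, the replicate number as a block, near copies summed, other reference genes or sums, and each tumor left out in turn.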

Additional observations from a re-analysis of the deposited data

How the results depend on the processing

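All 9 genes were called higher with an offset of 0.1 FPKM, an expression filter of 1 FPKM or none, 75th percentile scaling, quantile normalization and eBayes without the trend, and both summed pairs and the other 5 genes were called with near copies summed (7 of 7). With no moderation of the variance 0 of the 9 genes and 1 gene of the pathway lists were called higher by limma, against 9 and 45 (all 9 genes had an unadjusted p under 0.05), since 3 tumors per group leave few degrees of freedom, and 101 of 14172 genes were called higher against 2940. Leaving out 1 tumor left 7 to 9 of the 9 genes called, H2-T22 and Mr1 being those lost. Replicate numbers stand for different mice. Deviations of same-numbered tumors correlated at -0.21, -0.07 and 0.40, and those of differently numbered tumors at -0.54 to 0.59. These values cannot show whether same-numbered tumors shared a batch, since deviations from a mean of 3 tumors depend on each other. With the replicate number as a block, 8 of the 9 genes were called, without Mr1 (adjusted p = 0.0524), and 46 pathway genes were called higher.

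Scaling moved the direction of the whole table. Over all genes the median log2 fold change was 0.05 as deposited, -0.03 after 75th percentile scaling and -0.10 after quantile normalization, and the share of calls that were higher was 71.5%, 46.8% and 37.0%, with 50.1% without ACT + IL-2 replicate 2. Calls in all were 2940 higher and 1173 lower as deposited, 3259 and 3709 with 75th percentile scaling, 2669 and 4549 after quantile normalization, and 2005 and 1996 without that tumor. Relative to the median after quantile normalization, the 9 genes ranged from 0.40 (Mr1) to 2.39 (H2-Q7). Pathway genes called lower were 0 as deposited, 5 with 75th percentile scaling (Raet1a, Raet1b, Canx, Ap3d1 and Rfxap), 9 after quantile normalization, 1 (Canx) without the trend and 0 to 3 with 1 tumor left out, 3 being the count without ACT + IL-2 replicate 2. The causes of these shifts were not tested.

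The difference in the share of H2-T23 was -0.591 percentage points and became 7.14 with the Q genes left out of the sum, and ranged from -2.14 to 0.594 with 1 tumor left out. That of H2-M3 was 0.0754, ranged from -0.132 to 0.334, and was 1.23 without the Q genes (exact permutation p = 0.2), and that of Cd1d1 went from 0.190 to 0.551. Relative to B2m alone, H2-T10 (0.0519) and H2-Q4 (0.21) changed sign, and the Cd1d1 difference of 0.06 ranged from -0.0321 to 0.131 with 1 tumor left out but was 0.567 with an offset of 0.1 FPKM and 0.383 against B2m alone. With that offset H2-T10 was at -0.0379 against -0.27.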

Other observations

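The 9 genes were also set against the summed FPKM of the general leukocyte genes Ptprc, Itgb2, Coro1a and Laptm5 in the same tumor, a measure chosen after the values were seen. H2-Q7 amounted to 10.004%, 10.13% and 10.8% of that sum in ACT + IL-2 tumors and to 10.49%, 11.2% and 10.9% in ACT + NKTR-214 tumors, and the groups overlapped (means 10.32% ± 0.442 and 10.9% ± 0.378, SD, n = 3, ratio of means 1.05, exact permutation p = 0.2). H2-Q6 overlapped too, at 11.7% to 12.7% against 10.41% to 12.4% (ratio of means 0.918, exact permutation p = 0.3). The other 7 genes were lower against this sum in ACT + NKTR-214 tumors, with no overlap between the groups (exact permutation p = 0.1 each), from Cd1d1 with a ratio of means of 0.567 to Mr1 with 0.255. H2-T23 was at 53.6% to 84.1% of the leukocyte sum in ACT + IL-2 tumors and at 23.7% to 39.6% in ACT + NKTR-214 tumors. Whether leukocytes are the source of the H2-Q6 and H2-Q7 signal was not tested.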
